A study of Mus musculus with 5 samples.

Results

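Intermediate filament genes of glia and neurons were followed through 10 days of a focal stroke in the mouse caudate putamen. The genes were taken by name from the deposited table, as 4 glial genes (Gfap, Vim, Nes and Synm) and 5 neuronal genes (Nefl, Nefm, Nefh, Ina and Prph). Of these 9 genes, 8 are in the table of 19221 genes and Prph, the gene of peripherin, was not analysed here. All 8 were at 1 RPKM or more (reads scaled by gene length and by the reads of the library) in at least 1 library, as were 12783 genes of the table. Nes passed in 3 libraries and Synm passed through the sham library alone, while the other 6 passed in all 5 libraries.

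Male C57BL/6 mice aged 9 weeks received rose bengal at 100 mg/kg, a dye that clots blood where light reaches it, and then 2 min of 532 nm laser light at 30 mW through an optical fibre lowered 3 mm below the dura into the right caudate putamen. Punches of the lesion from 6 animals were pooled into 1 library each at 4 hours, day 1, day 3 and day 10 after the stroke, and punches of the opposite side were pooled into the sham library. The sham side had the same operation with the light given before the dye, so it is an operated and not an intact caudate putamen, and the sources used here give neither the number nor the times of its animals. Each group is thus 1 library of pooled RNA, so no spread between animals was available, no difference was tested, and the intervals below cover counting error only.

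Intermediate filaments are rope-like polymers of coiled-coil proteins that give a cell its mechanical strength, and each cell type builds them from its own set of subunits. Astrocytes assemble glial fibrillary acidic protein (Gfap) with vimentin (Vim), to which nestin (Nes) and synemin (Synm) are added, and more of these proteins in enlarged astrocytes around an injury is the classic sign of reactive gliosis. Neurons fill their axons with neurofilaments made of a light (Nefl), a medium (Nefm) and a heavy (Nefh) chain together with alpha-internexin (Ina), which set the width of the axon. Vimentin is not only astrocytic: macrophages, endothelial cells, pericytes and fibroblasts make it as well, and nestin is also made by progenitors and by growing vessels.

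Promoter sequence is shown for Gfap and Nes, which stood highest above sham among the glial genes at day 1, and for Ina as a neuronal gene. Windows from 250 bases before to 50 after a RefSeq transcript start on GRCm38.p6 were given for 6 of the 9 genes. The Ina stretch below ends at the start, and the Gfap stretch runs 7 bases past it so as to close a motif. The Nes stretch holds the first 235 bases of its window and ends short of the start, where an annotated exon begins. Capitals mark TTCNNNGAA, the palindromic STAT consensus, in Gfap (chr11:102897194-102897450, minus strand), and the GC box GGGCGG, here read from its other strand, in Nes (chr3:87970843-87971077, plus strand) and in Ina (chr19:47014431-47014680, plus strand).
Gfap: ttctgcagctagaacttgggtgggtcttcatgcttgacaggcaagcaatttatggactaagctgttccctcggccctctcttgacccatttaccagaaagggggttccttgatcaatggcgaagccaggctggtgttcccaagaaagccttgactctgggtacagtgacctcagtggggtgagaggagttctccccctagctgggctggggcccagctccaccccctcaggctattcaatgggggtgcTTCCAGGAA
Nes: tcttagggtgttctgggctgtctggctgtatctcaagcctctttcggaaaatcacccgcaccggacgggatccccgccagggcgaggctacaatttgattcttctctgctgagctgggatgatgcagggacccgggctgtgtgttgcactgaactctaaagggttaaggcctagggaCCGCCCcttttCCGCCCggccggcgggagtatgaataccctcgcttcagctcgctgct
Ina: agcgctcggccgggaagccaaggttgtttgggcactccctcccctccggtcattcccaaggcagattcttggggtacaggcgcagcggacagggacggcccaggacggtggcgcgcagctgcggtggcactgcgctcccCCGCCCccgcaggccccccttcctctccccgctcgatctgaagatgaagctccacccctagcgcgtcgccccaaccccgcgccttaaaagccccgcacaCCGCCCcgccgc
The Gfap match, TTCCAGGAA, covers bases -2 to 7, where base 1 is the first of the transcript. The Nes matches cover bases -73 to -68 and -62 to -57. A match to TTCNNNGAA was held by 8.30% of all 32851 promoter windows, and to GGGCGG on either strand by 35.7%. TGANTCA (AP-1, in 7.81% of windows) had no match in the windows of Gfap, Vim, Nes, Synm or Ina. TATAAA, in 13.6% of windows, had 1 match in the Vim window, at bases -32 to -27. CCAAT on either strand, in 37.4% of windows, had 2 matches in the Vim window and 1 in the Synm window. None of the capitals overlaps another of these motifs, and a match is a string of letters and not evidence of binding.

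Of the glial filament genes, Gfap was counted at least 2-fold below sham at 4 hours, and Gfap, Vim and Nes above it on day 1 and day 3. The log2 fold used throughout is log2((stroke RPKM + 1)/(sham RPKM + 1)), and a gene is counted where this is at least 1 or at most -1, which is 2-fold. At 4 hours 1 of the 4 glial genes (Gfap) was at least 2-fold lower than sham, beside 1.09% of all genes, and 0 were at least 2-fold higher, beside 2.2%. Nes, a low gene, had an RPKM ratio to sham of 0.297 at 4 hours. With 1 RPKM added to each level its log2 fold was -0.66, so it was not counted. At day 1, 3 of 4 (Gfap, Vim and Nes) were at least 2-fold higher, beside 3.33% of all genes. The same 3 genes were higher at day 3, beside 9.04%. Only Gfap and Vim were still higher at day 10, beside 4.2%. The median log2 fold of the 4 genes was -0.64 at 4 hours, 1.15 on day 1, 2.02 on day 3 and 0.52 on day 10, beside medians over all genes of 0.28, -0.02, 0.12 and 0.07. Median-of-ratios scaling, which brings the median of all genes to within 0.03 of 0 at each time, left these counts as they were.

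**Figure D1:**
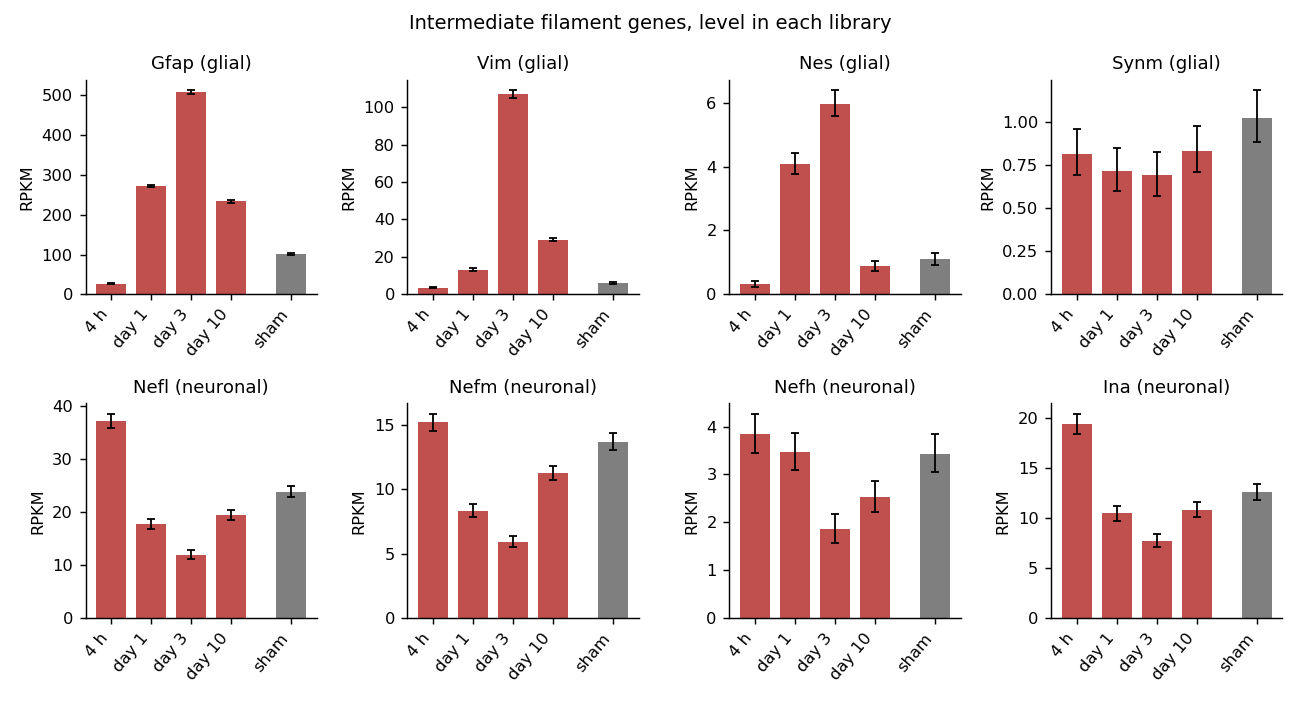
Level of each of the 8 filament genes, in RPKM on linear axes that start at 0, in the stroke libraries (red) and the sham library (grey); each bar is 1 pooled library and the error bars are 95% counting intervals. Gfap, Vim and Nes were highest at day 3 and lowest at 4 hours, whereas Nefl, Nefm, Nefh and Ina were highest at 4 hours and lowest at day 3.

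Gfap (GRCm38 chr11:102887336-102900912, minus strand) was the most abundant filament gene per length in every library but that of 4 hours. Its level was 26.3 RPKM at 4 hours, 272 on day 1, 509 on day 3 and 234 on day 10, against 102 RPKM in sham. The 4-hour library lay below sham and the other 3 above it, with the peak at day 3. The ratio to sham was 0.259 at 4 hours (95% counting interval 0.248 to 0.270), 2.68 on day 1 (2.61 to 2.74), 5.00 on day 3 (4.89 to 5.12) and 2.30 on day 10 (2.24 to 2.35). At 4 hours its log2 fold of -1.91 was the 30th lowest of the 12783 genes. The largest step between neighbouring times lay between 4 hours and day 1, when the level was 10.3-fold that of 4 hours (9.93 to 10.8). Gfap alone drew 0.0111% of reads at 4 hours and 0.215% at day 3, against 0.0429% in sham.

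Vim (GRCm38 chr2:13573927-13582826, plus strand) differed most from sham at day 3, and its largest step came later than that of Gfap. Vim stood at 3.51 RPKM at 4 hours, 13.1 on day 1, 107 on day 3 and 29.3 on day 10, against 5.90 RPKM in sham. Only the 4-hour library was below sham, and the day 3 library stood far above the other stroke libraries. The ratio to sham was 0.595 at 4 hours (0.522 to 0.676), 2.22 on day 1 (2.02 to 2.44), 18.1 on day 3 (16.7 to 19.7) and 4.96 on day 10 (4.55 to 5.41). Its log2 fold of 3.97 at day 3 was the 8th highest of the 12783 genes. That step lay between day 1 and day 3, an 8.17-fold ratio (7.73 to 8.64), when Gfap differed by 1.87-fold. By day 10 the level was 0.273 of that at day 3.

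Nes (GRCm38 chr3:87971078-87980451, plus strand) was high at day 1 and day 3. Its level was 0.326 RPKM at 4 hours, 4.08 on day 1, 5.97 on day 3 and 0.873 on day 10, against 1.10 RPKM in sham. The day 1 and day 3 libraries were high, and the other stroke libraries lay below sham. The ratio to sham was 0.297 at 4 hours (0.210 to 0.413), 3.72 at day 1 (3.12 to 4.46) and 5.45 at day 3 (4.59 to 6.50). At day 10 it was 0.796, with an interval of 0.628 to 1.01 that included 1, but after median-of-ratios scaling it was 0.725, with an interval of 0.572 to 0.918 that did not, so whether a difference exceeds counting error there depends on the scale. The day 1 level was 12.5-fold that of 4 hours (9.33 to 17.2), and the day 10 level 0.146 of that at day 3. The 4-hour value rests on 96 reads.

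Synm (GRCm38 chr7:67730160-67759742, minus strand), a large filament protein that binds vimentin-type filaments to their anchoring sites, did not share this course. Synm had 0.815 RPKM at 4 hours, 0.713 on day 1, 0.689 on day 3 and 0.832 on day 10, against 1.02 RPKM in sham. All 4 stroke libraries were slightly below sham. Synm reached 1 RPKM in the sham library alone, so that library had to be the highest. The direction of the ratios below is thus not a result. The ratio lay between 0.673 at day 3 (0.528 to 0.854) and 0.813 at day 10 (0.653 to 1.01), and the day 10 interval included 1. After the scaling the day 10 ratio was 0.740 (0.594 to 0.920), which does not include 1. Its highest level was 1.49-fold its lowest, against 19.3-fold for Gfap, 30.5-fold for Vim and 18.3-fold for Nes. On its exons Synm shares 426 bases with Gm45102 and 84 with Ttc23, both on the opposite strand, and the sources used here do not say if reads were counted by strand.

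**Figure D2:**
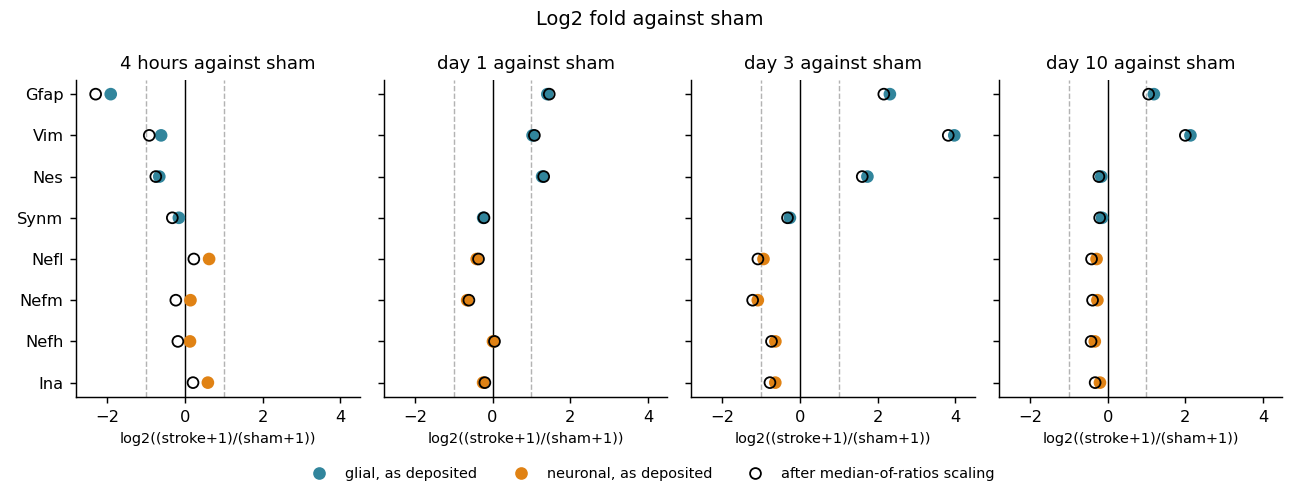
Log2 fold of each filament gene against sham at the 4 times; filled points are glial (blue) and neuronal (orange) genes as deposited, open circles are the same after median-of-ratios scaling, and dashed lines mark 2-fold. Vim at day 3 (3.97) is the farthest point from 0, Gfap is the farthest at 4 hours (-1.91), and the 4-hour points of Nefm and Nefh change sides of 0 with the scaling.

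The make-up of the glial filament message differed between libraries. Vim amounted to 0.133 of Gfap per length at 4 hours, 0.0482 on day 1, 0.210 on day 3 and 0.125 on day 10, against 0.0580 in sham. Day 1 had the least vimentin message for its Gfap and day 3 the most, with counting intervals (0.0456 to 0.0508 at day 1, 0.206 to 0.215 at day 3) that do not meet. Nes was 0.0124 of Gfap at 4 hours, 0.0150 at day 1 and 0.0117 at day 3, against 0.0108 in sham, but 0.00374 at day 10 (0.00313 to 0.00443). Synm was lowest relative to Gfap at day 3, at 0.0310 of Gfap at 4 hours, 0.00262 on day 1, 0.00135 on day 3 and 0.00356 on day 10, against 0.0101 in sham. These ratios are taken within a library and do not depend on how libraries are scaled to each other.

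Of the neuronal filament genes, Nefm alone was counted 2-fold from sham as deposited, at day 3. Against sham, 0 of the 4 analysed were at least 2-fold higher at any time and 0 were at least 2-fold lower at 4 hours, day 1 or day 10, beside 1.35% of all genes at least 2-fold lower at day 1 and 0.172% at day 10. At day 3, 1 (Nefm) was at least 2-fold lower, beside 0.618% of all genes. After median-of-ratios scaling 2 (Nefl and Nefm) were, beside 1.15%. The median log2 fold of the 4 genes was 0.37 at 4 hours, -0.32 on day 1, -0.79 on day 3 and -0.27 on day 10. The 4-hour median lay near that of all genes (0.28) and was 0.01 after the scaling, with Nefm and Nefh then below 0. All 4 genes were below sham at day 3 and at day 10 under either scale.

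Nefl (GRCm38 chr14:68083863-68089095, plus strand), the light chain on which the other chains co-assemble, was the most abundant of the neuronal set in all 5 libraries. It had 37.2 RPKM at 4 hours, 17.7 on day 1, 11.9 on day 3 and 19.4 on day 10, against 23.8 RPKM in sham. The 4-hour library was the highest and the day 3 library the lowest. The ratio to sham was 1.56 at 4 hours (1.47 to 1.66), 0.744 on day 1 (0.693 to 0.798), 0.501 on day 3 (0.461 to 0.544) and 0.814 on day 10 (0.760 to 0.871). After median-of-ratios scaling the 4-hour ratio was 1.18 (1.11 to 1.25).

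Nefm (GRCm38 chr14:68082590-68124846, minus strand), the medium chain, was at 15.2 RPKM at 4 hours, 8.36 on day 1, 5.93 on day 3 and 11.3 on day 10, against 13.7 RPKM in sham. Its day 3 ratio to sham of 0.432 (0.396 to 0.471) was the lowest of the neuronal genes, and its log2 fold of -1.09 was the 53rd lowest of the 12783 genes. At 4 hours the log2 fold was 0.14 as deposited and -0.24 after median-of-ratios scaling, so its direction at that time depends on the scale. Nefl and Nefm lie next to each other on chromosome 14 on opposite strands and share 1108 annotated exon bases, 32.8% of Nefl and 19.2% of Nefm. Reads of those bases cannot be given to either gene without strand, so the level of Nefm relative to Nefl is uncertain.

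Nefh (GRCm38 chr11:4938754-4948064, minus strand), the heavy chain, whose long tail projects from the filament, was the least abundant of the set, at 3.85 RPKM at 4 hours, 3.47 on day 1, 1.85 on day 3 and 2.53 on day 10, against 3.43 RPKM in sham. It was the one neuronal filament gene still level with sham at day 1, with a ratio of 1.01 (0.862 to 1.19). At day 3 the ratio was 0.540 (0.443 to 0.657) and at day 10 it was 0.737 (0.620 to 0.875). At 4 hours it was 1.12 with an interval of 0.959 to 1.31, which includes 1. After median-of-ratios scaling that ratio was 0.846 (0.724 to 0.989), below 1, and the log2 fold of 0.13 was -0.18.

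Ina (GRCm38 chr19:47014698-47025327, plus strand), alpha-internexin, had 19.4 RPKM at 4 hours, 10.5 on day 1, 7.73 on day 3 and 10.8 on day 10, against 12.6 RPKM in sham. Like Nefl it was highest at 4 hours and lowest at day 3. The ratio to sham was 1.54 at 4 hours (1.42 to 1.68) and 0.615 at day 3 (0.551 to 0.685). After median-of-ratios scaling the 4-hour ratio of Ina was 1.17 (1.07 to 1.27). Ina shares 456 exon bases, 14.1% of its exons, with Nt5c2 on the opposite strand. In each of the 4 neuronal genes the day 10 level stood between those of day 3 and sham, with the nearest to sham that of Ina at a log2 fold of -0.20.

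Within the neuronal set the proportions moved less than within the glial set. Nefm was 0.409 of Nefl per length at 4 hours, 0.472 on day 1, 0.496 on day 3 and 0.581 on day 10, against 0.575 in sham. Nefh was 0.103 of Nefl at 4 hours, 0.196 on day 1, 0.155 on day 3 and 0.130 on day 10, against 0.144 in sham. Ina was 0.522 of Nefl at 4 hours, 0.591 on day 1, 0.647 on day 3 and 0.559 on day 10, against 0.528 in sham. The heavy-chain ratio of day 1 (interval 0.173 to 0.221) overlaps that of day 3 (0.130 to 0.184), and that of 4 hours (0.0924 to 0.116) overlaps that of day 10 (0.113 to 0.149). The intervals of 4 hours and day 1 do not meet each other or that of sham (0.127 to 0.163).

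**Figure D3:**
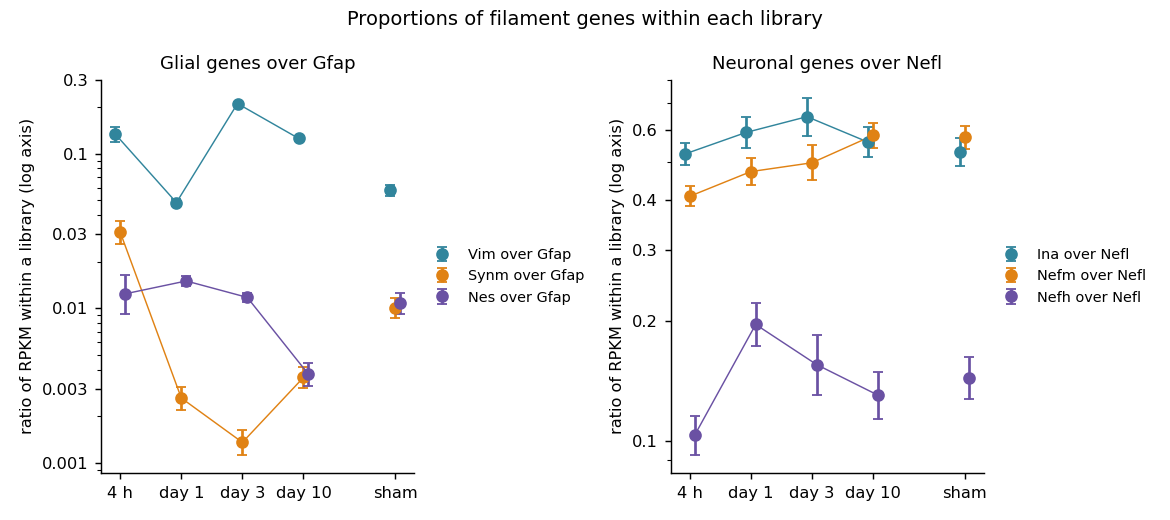
Ratio of RPKM within a library, on log axes, of Vim, Synm and Nes over Gfap (left) and of Ina, Nefm and Nefh over Nefl (right), at 4 times after stroke and in sham at the right of each panel; bars are 95% counting intervals. Vim over Gfap was lowest at day 1 (0.0482) and highest at day 3 (0.210), Nes over Gfap was lowest at day 10 (0.00374), and Nefh over Nefl was highest at day 1 (0.196).

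Set together, the classes crossed between 4 hours and day 1. The glial genes summed to 31.0 RPKM at 4 hours, 290 on day 1, 623 on day 3 and 265 on day 10, against 110 RPKM in sham, with Gfap making up 81.7% to 93.8% of the sum. The neuronal genes summed to 75.7 RPKM at 4 hours, 40.0 on day 1, 27.4 on day 3 and 44.0 on day 10, against 53.6 RPKM in sham. The glial sum was 0.409 of the neuronal sum at 4 hours, 7.25 times it on day 1, 22.7 times on day 3 and 6.01 times on day 10, against 2.05 times in sham. The 4-hour library was the only one with more neuronal than glial filament message. In such pooled tissue, fewer cells of a type and less RNA per cell cannot be told apart.

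**Figure D4:**
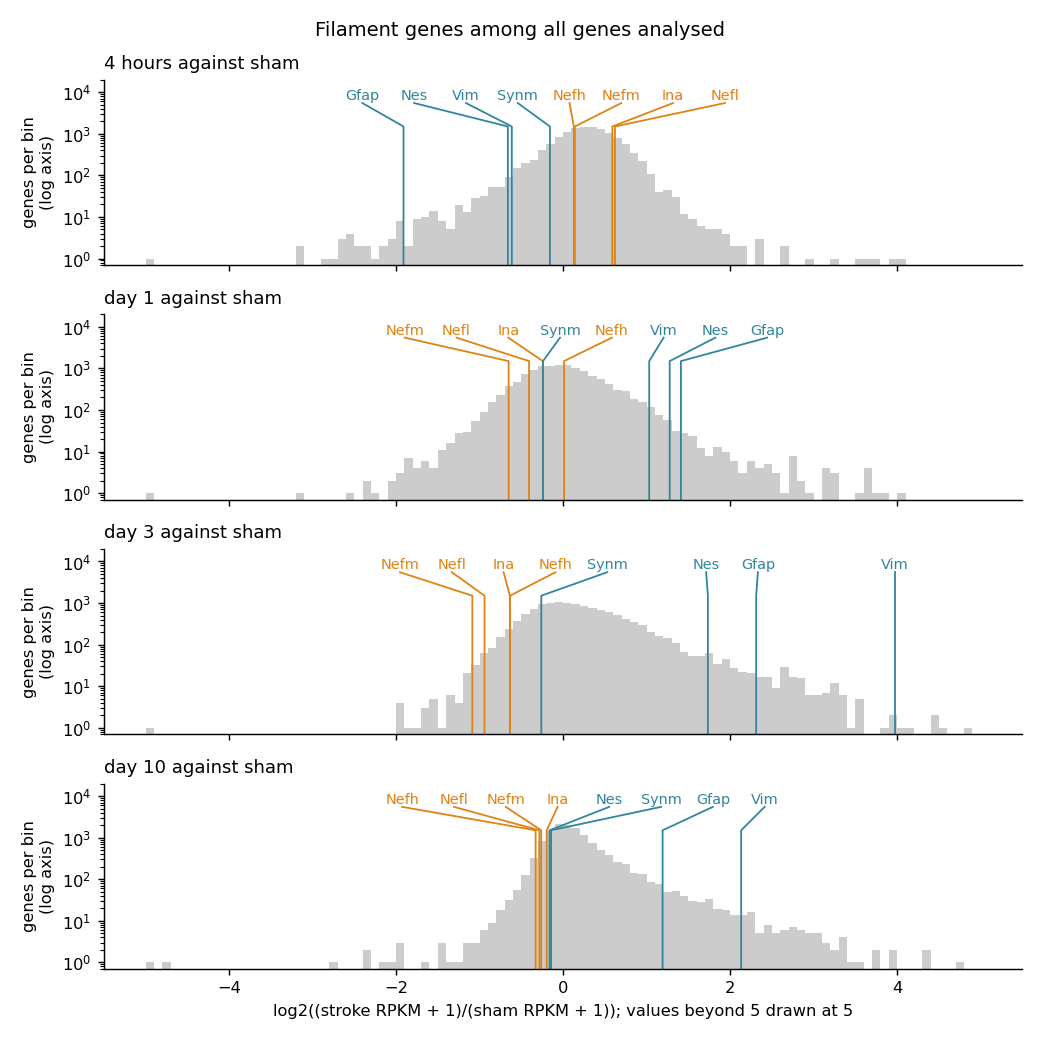
Log2 fold against sham of the 12783 genes analysed (grey histogram, genes per bin on a log axis) at each time, with the glial (blue) and neuronal (orange) filament genes marked by lines. At 4 hours the glial genes lie left of the neuronal ones, and at day 3 Vim (3.97), Gfap (2.31) and Nes (1.73) lie in the right tail while Nefm (-1.09) and Nefl (-0.94) lie in the left one.

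The sham library comes from the operated opposite side, so the later times were also set against the 4-hour library, a choice made after the values were seen. At day 1, 3 glial genes (Gfap, Vim and Nes) were at least 2-fold higher than at 4 hours, beside 2.7% of all genes, and 1 neuronal gene (Nefl) was at least 2-fold lower, beside 5.7%. At day 3 the same 3 glial genes were higher, beside 9.52%, and 3 neuronal genes (Nefl, Nefm and Ina) were lower, beside 6.92%. After median-of-ratios scaling Nefl was at -0.59 on day 1 over 4 hours, short of 2-fold, and on day 3 over 4 hours Nefl alone of the neuronal genes passed, at -1.31, with Nefm and Ina both at -0.98. At day 10, 2 glial genes (Gfap and Vim) were higher, beside 6.08%, and 0 neuronal genes were lower, beside 3.57%. The log2 fold of day 3 over 4 hours was 4.22 for Gfap, 4.58 for Vim and 2.39 for Nes, and -1.56 for Nefl, -1.23 for Nefm, -1.23 for Ina and -0.76 for Nefh.

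Astrocyte markers mostly stayed within 2-fold of sham. The part of these cells, and of the other cell types below, in the filament levels was not tested. Of 12 astrocyte markers, which leave Gfap out, 0 were at least 2-fold from sham at 4 hours or day 1. At day 3, 1 was higher, beside 9.04% of all genes, and at day 10, 1, beside 4.2%, so both counts are near those shares. They were Aldh1l1, a folate enzyme, at day 3 (21.7 against 10.1 RPKM) and Aqp4, the water channel of astrocyte endfeet, at day 10 (4.30 against 1.60 RPKM). After median-of-ratios scaling neither of these passed 2-fold, and Slc1a2 and Gjb6 were then lower at day 3. The summed level of the 12 was 719 RPKM at 4 hours, 447 on day 1, 431 on day 3 and 515 on day 10, against 517 RPKM in sham, and none was at 0 in any library. Slc1a2, the glutamate transporter of astrocytes, was at 20.1 RPKM at day 3, against 40.7 RPKM in sham. Gfap was 0.0366 of the astrocyte sum at 4 hours, 0.609 on day 1, 1.18 times it on day 3 and 0.454 of it on day 10, against 0.197 in sham. Gfap over Aldh1l1 alone was 2.20 at 4 hours and 10.0 in sham. That ratio was 23.2 on day 1 (21.9 to 24.6), 23.5 on day 3 (22.5 to 24.6) and 20.4 on day 10.

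Microglia and macrophage markers stood highest at day 3 and day 10. Of the 11 analysed, 0 were at least 2-fold higher than sham at 4 hours, 2 at day 1 (Tyrobp and Lyz2), 9 at day 3 and 11 at day 10. The shares of all genes at these times were 2.2%, 3.33%, 9.04% and 4.2%. At least 2-fold lower were 1 at 4 hours (Lyz2), beside 1.09%, and 1 at day 1 (Tmem119), beside 1.35%. P2ry12, at 1 RPKM or more at day 3 and day 10 only, no longer passed 2-fold at day 10 after median-of-ratios scaling. The list of 12 summed to 202 RPKM at 4 hours, 289 on day 1, 1652 on day 3 and 1978 on day 10, against 240 RPKM in sham, with no marker at 0. Cd68, a lysosomal protein of phagocytes, had 10.3 RPKM at 4 hours, 24.6 on day 1, 211 on day 3 and 81.9 on day 10, against 12.8 RPKM in sham. Vim was 0.0174 of the microglia and macrophage sum at 4 hours, 0.0453 on day 1, 0.0648 on day 3 and 0.0148 on day 10, against 0.0246 in sham.

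Markers of dividing cells and of other cells that make vimentin or nestin were also read. The 7 dividing cell markers analysed reached 1 RPKM in the day 3 library alone, so that library had to be the highest and no count is given. The list summed to 1.26 RPKM at 4 hours, 1.02 on day 1, 34.3 on day 3 and 2.82 on day 10, against 1.05 RPKM in sham. Aurkb, a mitotic kinase that phosphorylates vimentin, was listed at 0 at 4 hours and had 2.14 RPKM at day 3, against 0.0302 RPKM in sham. Of the 7 pericyte and smooth muscle markers analysed, 3 were higher at day 3 (Tagln, Acta2 and Anpep), beside 9.04% of all genes. Anpep was at 1 RPKM or more at day 3 and day 10 only. The list summed to 19.3 RPKM at 4 hours, 38.0 on day 1, 67.3 on day 3 and 19.3 on day 10, against 15.1 RPKM in sham. Of 7 endothelial markers, 1 was higher at day 3, a count near the share of all genes (9.04%). It was Cldn5, a tight junction protein, at 1.02 on the log2 scale and 0.86 after the scaling. The endothelial list summed to 148 RPKM at day 3, against 78.6 RPKM in sham. Of the 5 fibroblast markers analysed, Col1a1, Col1a2, Col3a1 and Dcn reached 1 RPKM at day 10 alone, so no count is given, and Fn1, fibronectin, had 6.46 RPKM at day 3 and 4.63 at day 10, against 1.65 RPKM in sham. The list summed to 10.1 RPKM on day 3 and 14.8 on day 10, against 3.91 RPKM in sham.

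Neuron markers gave different pictures depending on the list. Of 9 pan-neuronal markers analysed, 0 were at least 2-fold lower at any time. At 4 hours 1 was higher (Stmn2, not after the scaling), beside 2.2% of all genes. The median log2 fold of the 9 was 0.57 at 4 hours, -0.11 on day 1, -0.16 on day 3 and -0.13 on day 10. Markers of medium spiny neurons, the main neurons of the caudate putamen, also differed from sham: Ppp1r1b, Drd1, Pde10a and, just short of 2-fold after the scaling, Drd2 were at least 2-fold lower at day 1, and Pde10a at day 3. The 11 markers had medians of 0.37 at 4 hours, -0.97 on day 1, -0.45 on day 3 and -0.19 on day 10. The spiny neuron median was thus lowest at day 1 and the neurofilament median at day 3. Against the marker sum of the pan-neuronal list, the neuronal filament sum was 0.0943 at 4 hours, 0.0803 on day 1, 0.0524 on day 3 and 0.0947 on day 10, against 0.102 in sham. Nefl over Rbfox3, a marker of the same list, lay between 1.13 at day 3 and 1.27 at 4 hours, against 1.23 in sham. Against the medium spiny neuron sum, the neuronal filament sum was 0.0325 at 4 hours, 0.0441 on day 1 and 0.0198 on day 3. It was 0.0283 on day 10, against 0.0295 in sham.

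**Figure D5:**
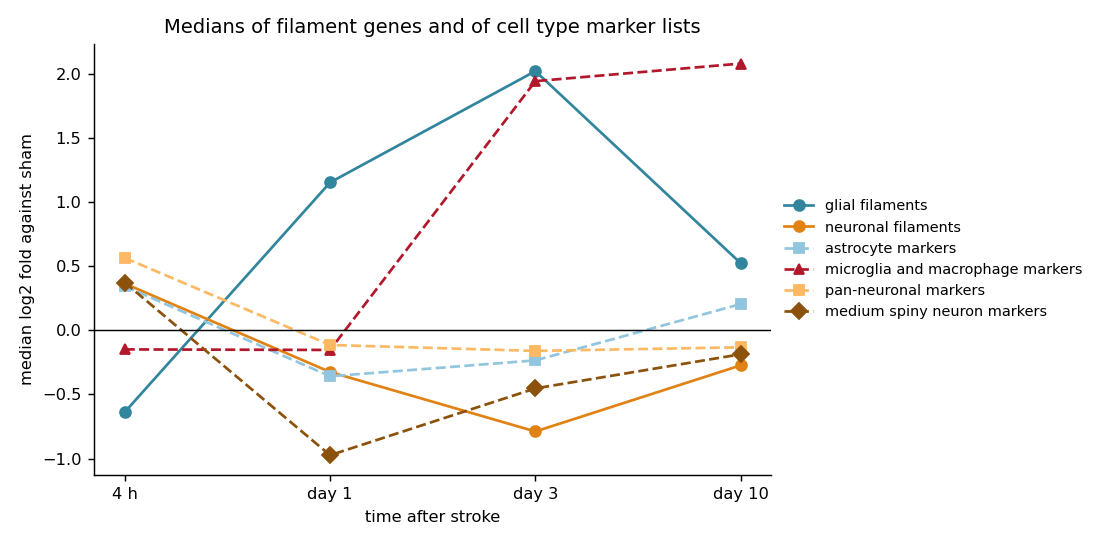
Median log2 fold against sham of the glial and neuronal filament genes (solid) and of 4 marker lists (dashed) at the 4 times, drawn at equal steps. The glial filament median (2.02) and that of the microglia and macrophage list (1.94) are both high at day 3, and the neuronal filament median is lowest at day 3 (-0.79) while that of medium spiny neurons is lowest at day 1 (-0.97).

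The genes of nearest time course were found among 9665 named protein-coding genes by Euclidean distance over the 4 log2 folds, which share the sham library. Nearest to Gfap were Ifitm3 (0.80), an interferon-induced membrane protein, Lcn2 (0.86), a secreted lipocalin, Fcgr4 (1.19), an Fc receptor of myeloid cells, Serpina3n (1.28), a serine protease inhibitor, and Tspan4 (1.38), a tetraspanin. Ifitm3 had 12.8 RPKM at 4 hours, 106 on day 1, 320 on day 3 and 137 on day 10, against 42.5 RPKM in sham. Nearest to Vim were Cd68 (0.58), Capg (0.81), which caps actin filaments, Tspo (0.88), of the outer mitochondrial membrane, Emp3 (0.94) and Lgals1 (1.00), galectin-1. Lgals1 had 9.14 RPKM at 4 hours, 45.0 on day 1, 509 on day 3 and 78.8 on day 10, against 16.3 RPKM in sham. Nearest to Nes were Hmga1b (0.35) and Hmga1 (0.63), near-identical sequences of a chromatin protein whose counts are uncertain, S100a16 (0.57), Clcf1 (0.64), a cytokine of the ciliary neurotrophic factor receptor, and S100a10 (0.77).

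The neuronal genes had closer neighbours, since their folds were small. Nefl was nearest to Dnajc27 (0.09), Rasgef1a (0.11), Rbfox3 (0.14), Ppp2r2c (0.15) and Ankrd33b (0.15). Rbfox3, which encodes the nuclear neuron marker NeuN, had 29.2 RPKM at 4 hours, 14.4 on day 1, 10.6 on day 3 and 15.7 on day 10, against 19.4 RPKM in sham. Nefm was nearest to Agt (0.13), angiotensinogen, followed by Hspa2 (0.16), Klhl29 (0.18), Mrtfb (0.19) and Map1a (0.20), a microtubule-associated protein. Nefh was nearest to Trak2 (0.17), a mitochondrial transport adaptor, followed by Hmgcs1 (0.20), Scrt1 (0.22), Camk2a (0.25) and Extl1 (0.25). Among the nearest to Ina were Amigo1 (0.03), Clstn1 (0.05), Tmod1 (0.09) and Bcl7a (0.10), and Synm was nearest to Tmod2 (0.08), Thra (0.10), Svip (0.11), Abhd8 (0.12) and Usp31 (0.12).

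Genes that act on filaments mostly did not pass 2-fold. For this list and those below, the shares of all genes at least 2-fold higher were 2.2% at 4 hours, 3.33% on day 1, 9.04% on day 3 and 4.2% on day 10. The shares at least 2-fold lower were 1.09%, 1.35%, 0.618% and 0.172%. Of 8 linkers and crosslinkers analysed of 13 listed, 1 was at least 2-fold higher at day 1 (Hspb1, a small heat shock protein that binds filaments) and 1 at day 3 (Cryab, alpha-B crystallin, which also binds them), and 0 were lower. Hspb1 had 6.04 RPKM at 4 hours, 54.6 on day 1, 17.1 on day 3 and 12.2 on day 10, against 9.11 RPKM in sham. Cryab had 93.8 RPKM at 4 hours, 72.9 on day 1, 149 on day 3 and 54.0 on day 10, against 55.0 RPKM in sham. Hspb1 was thus highest at day 1, with Nes already high, and Cryab at day 3. Plec, the plectin that ties filaments to other structures, came next in the list by size, with its largest log2 fold -0.83 at day 1. The list medians were -0.26 at 4 hours, -0.40 on day 1, -0.34 on day 3 and -0.02 on day 10.

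Of 12 filament kinases, proteases and deiminases analysed of 17 listed, Pak1 was at least 2-fold higher at 4 hours (log2 fold 1.01), and was not after median-of-ratios scaling. At day 3, 2 were higher (Aurkb at 1.61, which reached 1 RPKM in that library alone, and Capns1, the small subunit of the calpain proteases that cleave neurofilaments, at 1.58). Cdk5r1, the activator of the neurofilament kinase Cdk5, was the 1 that was lower at day 3. Cdk5r1 had 42.3 RPKM at 4 hours, 13.4 on day 1, 10.5 on day 3 and 18.5 on day 10, against 23.2 RPKM in sham. It was, like the neurofilament genes, highest at 4 hours and lowest at day 3, while Cdk5 itself differed little from sham, at 24.9 RPKM at day 3, against 22.7 RPKM in sham.

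Of 20 other neuronal cytoskeleton genes, 3 were 2-fold or more above sham at day 3, beside 9.04% of all genes. These were the tubulin genes Tubb2b (1.44 on the log2 scale), Tubb2a (1.15) and Tuba1a (1.02), of which 1 remained so after median-of-ratios scaling. At 4 hours 2 stathmin genes were higher, beside 2.2% of all genes. These were Stmn2 (1.09) and Stmn1 (1.00), and neither was higher after the scaling. As deposited 0 were at least 2-fold lower at any time, and the list median at day 3 was -0.37, against -0.79 for the neurofilament genes. Kif5a, the motor that carries neurofilaments, was at 69.2 RPKM at day 3, against 134 RPKM in sham (log2 fold -0.94), and after the scaling it and Map1a were at least 2-fold lower. Among 6 further filament genes analysed (lamins, keratins and Bfsp2), 1 was higher at 4 hours, Krt18 at 1.62 RPKM, against 0.175 RPKM in sham (0.92 on the log2 scale after the scaling, and at 1 RPKM or more in that library alone), and Lmna, the A-type lamin, came next at 0.94 at day 3 and Bfsp2 at 0.86 at day 10.

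Of 24 listed genes of the STAT3 and BMP pathways, which are known to drive Gfap transcription in astrocytes, 15 were analysed. At least 2-fold higher were 0 at 4 hours, beside 2.2% of all genes, and 4 on day 1, beside 3.33%. On day 3 there were 2, beside 9.04%, and on day 10 there was 1, beside 4.2%. The counts of day 3 and day 10 lie near those shares. At least 2-fold lower were 0 at any time. These counts follow in part from the floor of 1 RPKM, which Lif and Osm passed at day 1 only, Clcf1 at day 1 and day 3 only, and Cntf at day 10 only. Among the ligands, Lif had 0.230 RPKM at 4 hours, 2.87 on day 1, 0.609 on day 3 and 0.254 on day 10, against 0.327 RPKM in sham. Osm was at 1.66 RPKM at day 1, against 0.167 RPKM in sham, and Clcf1 at 2.12 RPKM at day 1 and 2.29 at day 3, against 0.396 RPKM in sham. Socs3, a feedback inhibitor that STAT3 induces, had 4.03 RPKM at 4 hours, 14.2 on day 1, 8.63 on day 3 and 5.39 on day 10, against 3.14 RPKM in sham. Cntf, ciliary neurotrophic factor, was highest at day 10, at 1.61 RPKM, against 0.145 RPKM in sham. Stat3 itself stayed under 2-fold, with its largest log2 fold 0.74 at day 1. Id3, a BMP target, passed 2-fold at 4 hours only after the scaling, with a log2 fold of -0.81 as deposited and -1.19 after it. The list median was 0.22 at 4 hours, 0.27 on day 1, 0.28 on day 3 and 0.27 on day 10.

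Of 7 neural progenitor genes analysed of 12 listed, Hes1, a Notch target, was higher at 4 hours (1.29 on the log2 scale and 0.99 after the scaling). Cd44, a hyaluronan receptor, was higher at day 1 (1.11) and day 3 (1.03, and 0.93 after the scaling), and Fabp7, a fatty acid binding protein of radial glia, at day 3 (2.00). Fabp7 had 1.48 RPKM at 4 hours, 1.21 on day 1, 11.1 on day 3 and 4.40 on day 10, against 2.01 RPKM in sham. Like Vim it was highest at day 3, and unlike Nes it was below sham at day 1. Sox2, a transcription factor of neural stem cells and astrocytes, had 3.39 RPKM at day 3, against 3.58 RPKM in sham.

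The libraries were alike in depth, with 42261783 to 48013846 reads behind the RPKM values. Mitochondrial reads made up 2.75% to 6.02% of the reads on genes. Ppp1r1b, a defining marker of the caudate putamen, was between 476 and 1004 RPKM in the stroke libraries, against 1019 RPKM in sham. Ttr, a marker of the choroid plexus, was at 729 RPKM at 4 hours, 303 on day 1, 19.6 on day 3 and 0.205 on day 10, against 77.4 RPKM in sham, and the part of such neighbouring tissue in the filament levels was not tested. Neutrophil markers were high at day 1, when S100a9 had 93.4 RPKM, against 5.50 RPKM in sham.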

How the data were processed

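RNA of 5 pooled libraries was measured, 1 per group. Per the submitters' processing notes, Trimmomatic 0.36, HISAT2 2.1.0, StringTie 1.3.4d and the build GRCm38 were used; their roles, the annotation version and the use of strand were not given in these sources. As the file headers show, the authors deposited 1 RPKM value per gene and library, with log2 folds, GFOLD values (a log2 fold shrunk towards 0, at setting 0.01) and p-values for pairs of libraries; the p-values were not used.

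The members, lists and alternatives were chosen with earlier results of these data known. Genes at 1 RPKM or more in at least 1 library were analysed, with a pseudocount of 1 RPKM, and counted from 2-fold. This scale understates differences of low genes. With 1 library per group no test was made; the ratios of RPKM carry exact conditional binomial intervals (95%). Reads were recovered as RPKM times the union exon length of GENCODE vM21 and were whole, within 0.02, for 90.4% to 90.5% of values under 5000 reads; intervals use the reads divided by 2, since both mates of a pair may be counted. Coordinates of overlaps are those of that annotation. A read in a 2 kb gene was worth 0.0104 to 0.0118 RPKM. The text names all members, the 5 genes of nearest time course to each, and from the lists of filament biology the genes past 2-fold or of largest fold; of the marker lists mainly those past 2-fold. Slc1a2, Kif5a, Cdk5, Stat3, Sox2, Slc18a3 and the tissue markers were named in addition, after their values were seen. Some genes that this rule would name are not reported here. Alternatives were other pseudocounts, scalings, filters and size limits. The calculation was tested on simulated data. Python 3.11.15, numpy 2.4.6, pandas 2.3.3, scipy 1.17.1 and bedtools 2.31.1 were used.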

Additional observations from a re-analysis of the deposited data

How the results depend on the processing

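With 1 library per group, no difference could be checked against replicates, and the counts of genes rest on the size limit. At a limit of 1.5 on the log2 scale, 0 glial genes were higher at day 1, beside 0.947% of all genes, and 1 at day 10, beside 1.87%. At that limit 0 neuronal genes were lower at day 3, beside 0.117%. At 1.5-fold, 3 glial genes were lower and 2 neuronal genes higher at 4 hours, and 1 neuronal gene was lower at day 1 and 4 at day 3, where 3.04% of all genes were lower and 18.5% higher at 4 hours, 8.48% lower at day 1 and 5.26% lower at day 3. A pseudocount of 0.1, and the authors' deposited GFOLD value, each gave 2 glial genes lower at 4 hours (Gfap and Nes). Median-of-ratios scaling, trimmed-mean-of-M-values scaling and nuclear protein-coding reads as the total each gave 2 neuronal genes lower at day 3. With the 4-hour library in place of sham, 1 neuronal gene was lower at day 1 and 3 at day 3, and after median-of-ratios scaling as well these were 0 and 1 (Nefl). With the protein-coding total 2 glial genes were higher at day 1, with Vim at 0.96. All other counts held within 1.5 times under these settings, a pseudocount of 0.5, no filter and a floor of 5 RPKM. Of the folds, those of Nefm and Nefh at 4 hours turned negative under all 3 scalings, to between -0.24 and -0.13, and that of Nefh at day 1 was -0.05 with the protein-coding total. The protein-coding total, the GFOLD value and the 4-hour comparison were chosen after seeing the data. After median-of-ratios scaling 1 of the 5 genes nearest to Synm and 3 of the 5 nearest to Ina stayed the same, and 4 or 5 for each other gene. Depth limits Nes at 4 hours and Synm throughout. No paired analysis was possible because each group is 1 library.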

Other observations

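Of 10 oligodendrocyte markers, 3 were at least 2-fold higher than sham at 4 hours (Mog, Cldn11 and Mal, at log2 folds of 1.63, 1.52 and 1.55) and remained counted after median-of-ratios scaling, and 1 was higher at day 1 (Opalin, 1.35). Mog, a protein of the outer myelin surface, had 105 RPKM at 4 hours, 43.0 on day 1, 35.0 on day 3 and 41.8 on day 10, against 33.2 RPKM in sham. Of 9 cortical excitatory neuron markers analysed, 1 was higher at 4 hours (Nrn1, neuritin, 12.2 against 3.37 RPKM), and of 8 striatal interneuron markers 0 passed 2-fold at any time. Slc18a3, the vesicular acetylcholine transporter, had the largest fold of the interneuron list, at 1.48 RPKM at day 1, against 3.74 RPKM in sham.

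Of 6 ependymal and choroid plexus markers analysed, 4 were higher at 4 hours (Ttr, Folr1, Kcnj13 and Enpp2), of which Enpp2 was at 0.92 on the log2 scale after median-of-ratios scaling and Kcnj13 reached 1 RPKM at 4 hours only, and Ttr was the 1 higher at day 1 and the 1 lower at day 3 and at day 10. Of 4 neutrophil markers analysed, 3 were higher at day 1 (S100a8, S100a9 and Retnlg), and Csf3r, the granulocyte colony-stimulating factor receptor, was the 1 higher at day 3 and at day 10. S100a9, a calcium-binding protein of granulocytes, had 3.08 RPKM at 4 hours, 93.4 on day 1, 4.53 on day 3 and 5.59 on day 10, against 5.50 RPKM in sham. Ngp and Cxcr2 were listed at 0 at 4 hours.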
